A study of Rattus norvegicus with 93 samples.

Results

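The 57 rat genes followed here code for eukaryotic translation initiation factors (symbols beginning Eif and a digit) and elongation factors (Eef and a digit), with the kinases, binding proteins and 1 methyltransferase that share those symbols. They were chosen by symbol alone: of 7810 genes with a probe set annotated to 1 symbol, 57 matched. Where a gene had several probe sets, the one with the highest mean signal across the 93 arrays stood for it. Probe sets shared with another symbol were not members, which left out Eif5 and Eif3e, and Eif2s3 and Eif2s3y, which are near-identical copies, were kept with the caution that their probe sets may read both. All 57 were matched to RefSeq by gene ID.

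Bone marrow of the left femur was taken from 93 male Sprague-Dawley rats, 8 weeks of age and fitted with a femoral vein cannula, and each rat gave 1 Affymetrix array. Every rat received 2 intravenous infusions in sequence and was killed 1, 6 or 24 h after the second one ended. Topotecan, a topoisomerase I inhibitor, was given at 4.7 mg/kg in saline (NaCl), and oxaliplatin, a platinum compound that forms DNA adducts, at 15 mg/kg in dextrose in water (D5W). Group names give the first infusion and then the second: topotecan/D5W and D5W/topotecan received topotecan alone, oxaliplatin/NaCl and NaCl/oxaliplatin oxaliplatin alone, topotecan/oxaliplatin and oxaliplatin/topotecan both drugs, and NaCl/D5W and D5W/NaCl only the vehicles. There were 24 groups, 21 of 4 rats and 3 of 3 rats (oxaliplatin/NaCl at 6 h, and both topotecan/D5W and D5W/NaCl at 24 h). Each treatment was compared with the vehicle group of its own order and time, so that topotecan/D5W, NaCl/oxaliplatin and topotecan/oxaliplatin shared the NaCl/D5W rats, and the other 3 treatments shared the D5W/NaCl rats. Lists of 6 values start with topotecan alone (given first, then given second), go on with oxaliplatin alone (first, then second) and end with the combination (topotecan first, then oxaliplatin first). The labels name no litter or culture beyond the animal, and the authors removed 1 further array.

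Translation begins when eIF4F (the cap-binding eIF4E, the helicase eIF4A and the scaffold eIF4G) recruits an mRNA to a small ribosomal subunit that carries eIF3 and the initiator tRNA delivered by eIF2. A family of related kinases phosphorylates the alpha subunit of eIF2, and phosphorylated eIF2 blocks its exchange factor eIF2B and lowers general initiation, while 4E-BP proteins sequester eIF4E when mTOR signalling is low. During elongation eEF1A, recharged by the eEF1B subunits, brings in aminoacyl-tRNA and eEF2 moves the ribosome along, unless it is phosphorylated by eEF2 kinase. Marrow makes erythroid and myeloid cells at a high rate, and developing red cells, which make globin, depend on the heme-regulated kinase encoded by Eif2ak1.

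Promoter windows of 250 bases before and 50 after the annotated start were at hand for 52 of the 57 genes (RefSeq, build GRCr8). Those of 4 genes are shown because their genes are among those that rose or fell most (Eif2ak2, Eif1b and Eef2k) or encode the cap-binding protein itself (Eif4e), and because each holds a searched motif close to the start. Capitals mark the repeat of interferon-stimulated response elements (GAAA, any 2 bases, GAAA) in Eif2ak2, and CACGTG, the E-box bound by Myc and related factors, in the others. The windows lie at chr6:21941094-21941173, chr8:129081058-129081157, chr1:184824320-184824419 and chr2:229740653-229740752, all on the plus strand. Those of Eif1b and Eif4e lie inside the RefSeq gene spans, which begin at 129080497 and 229736309. The start used for these genes is thus not the outermost one. The first runs from 60 bases before the start to 20 after it and the others cover the 100 bases before it.
Eif2ak2: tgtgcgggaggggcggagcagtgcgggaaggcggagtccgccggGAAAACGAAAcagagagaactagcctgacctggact
Eif1b: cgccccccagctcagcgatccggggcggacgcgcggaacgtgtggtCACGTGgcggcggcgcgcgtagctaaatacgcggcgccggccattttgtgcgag
Eef2k: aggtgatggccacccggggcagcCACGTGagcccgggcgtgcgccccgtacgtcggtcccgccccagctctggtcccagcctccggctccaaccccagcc
Eif4e: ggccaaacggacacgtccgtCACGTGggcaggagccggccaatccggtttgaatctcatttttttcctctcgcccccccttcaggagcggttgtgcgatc

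The E-box CACGTG was found, on either strand (the motif reads the same on both), in 11 of 52 member promoters (21.2%) and in 6.42% of all 33469 promoters of the same length. The 11 were Eef2, Eef2k, Eif1b, Eif3a, Eif3b, Eif3f, Eif4e, Eif4g1, Eif4h, Eif5a and Eif5a2. The interferon-type repeat, searched on both strands and chosen after the values had been seen, was found in 5 members (9.62%, against 3.92% of all promoters), namely Eif2a, Eif2ak2, Eif2s3, Eif3k and Eif6. TGATGNAA, the core of the amino acid response element, was found on either strand in 1 member, Eif2s2 (1.92%, against 3.98%), and AGATAA, the GATA-factor motif, also chosen after the values had been seen, in 0, against 11.6% of all promoters. A match is a description of letters only. At 1 h the median log2 difference of the E-box members was -0.23, -0.13, -0.048, -0.026, -0.24 and -0.17, beside -0.35, -0.078, -0.023, 0.0058, -0.36 and -0.11 in the 41 other members with a promoter window, and 6, 3, 0, 0, 5 and 4 of the 11 fell, beside 28, 5, 0, 0, 28 and 10 of the 41.

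Most translation factor mRNAs fell in at least 1 treatment, and the falls were small. The share of lower members exceeded that of all probe sets clearly at 1 h only where topotecan was given first. At 6 h it did so in all 6 treatments, and at 24 h chiefly where oxaliplatin was given. A gene was called higher or lower at a limma adjusted p (Benjamini-Hochberg over all 12532 probe sets) under 0.01, with no minimum fold. In bulk marrow fewer cells of a type and less RNA per cell cannot be told apart. At 1 h 38, 8, 0, 0, 37 and 17 of the 57 genes were lower and 2, 2, 1, 0, 0 and 1 higher in the 6 treatments. Over all probe sets the shares called lower were 26%, 19.5%, 0.654%, 0.0239%, 32.9% and 27.6%, and those called higher 9.18%, 7.67%, 0.575%, 0.136%, 9.77% and 7.21%. The member count thus lay above its background in topotecan/D5W and topotecan/oxaliplatin, below it in D5W/topotecan, and close to it in oxaliplatin/topotecan (29.8% of members). Topotecan/D5W and topotecan/oxaliplatin, which share vehicle rats, had 33 lower genes in common (57.9% of members, beside 24.9% of all probe sets lower in both). In NaCl/oxaliplatin at 1 h, with 0 calls by limma, 7 members had an unadjusted p under 0.05. The share of all probe sets under that p was not taken, so the 7 are not read as an effect.

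At 6 h the counts of lower genes were 32, 27, 10, 14, 31 and 30 and of higher genes 0, 0, 0, 1, 1 and 2. Over all probe sets 25.6%, 20.4%, 7.25%, 9.69%, 27.6% and 27.5% were lower and 15.1%, 14.1%, 3.78%, 5.54%, 17% and 14.2% higher. All 6 treatments had a larger share of lower members than of lower probe sets, and the count for oxaliplatin/NaCl, where 3 rats were measured, ranged from 2 to 8 with 1 rat left out, with 2 calls without animal 39. That count of 10 became 20 with all 8 infusion groups in 1 fit, 17 after a second quantile normalization, 19 with the animal set as a block and 25 with pooled vehicles. The 5 genes lower in all 6 treatments at this time (8.77% of members, beside 5.23% of all probe sets) were Eef1g, Eef2, Eif3b, Eif3f and Eif4enif1.

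By 24 h the pattern had turned to oxaliplatin: 10, 16, 39, 45, 42 and 44 genes were lower and 2, 0, 1, 1, 2 and 1 higher. The background was 17.3%, 18.3%, 26.4%, 30.2%, 35.2% and 33.3% lower and 16.1%, 18.1%, 19.6%, 24.9%, 25.9% and 21.8% higher. In the 4 treatments that held oxaliplatin 36 genes (63.2% of members) were lower in all, as were 22.7% of all probe sets, and these 4 comparisons share vehicle rats in pairs. Topotecan alone came near its background in topotecan/D5W (17.5% of members) and lay above it in D5W/topotecan (28.1%). The 12 calls of topotecan/D5W at 24 h, with 3 rats, became 4 to 16 when each rat was left out in turn, with 4 without animal 36, 5 without animal 29 and 7 without vehicle animal 11. The 8 genes lower in all 6 treatments at 24 h (14% of members, beside 12.2% of all probe sets) were Eef1e1, Eif2ak1, Eif2b2, Eif2s3, Eif3a, Eif3j, Eif4e2 and Eif4enif1.

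**Figure D1:**
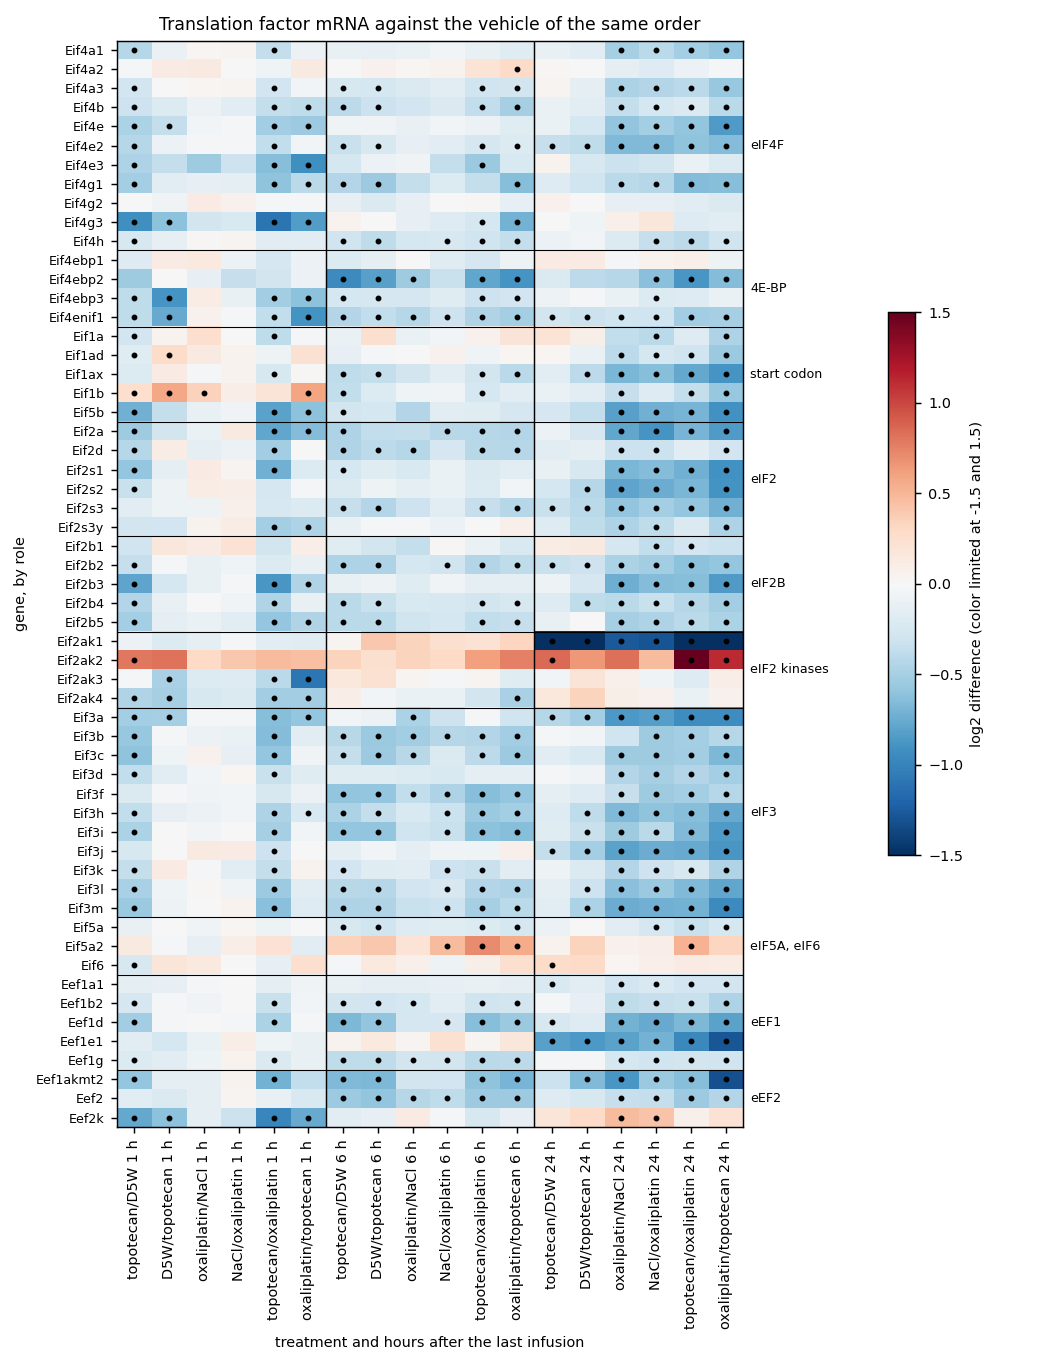
Log2 difference from the own-order vehicle for the 57 genes (rows, grouped by role, the last block holding eEF2, its kinase and the methyltransferase Eef1akmt2) in 18 comparisons (columns), with a dot where limma adjusted p was under 0.01. The blue blocks at 1 h stand in topotecan/D5W and topotecan/oxaliplatin, and at 24 h in the 4 treatments with oxaliplatin.

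The median log2 difference of the 57 genes was -0.35, -0.089, -0.036, -0.0018, -0.36 and -0.12 at 1 h, -0.27, -0.25, -0.23, -0.18, -0.27 and -0.26 at 6 h and -0.11, -0.20, -0.41, -0.40, -0.44 and -0.51 at 24 h. Over all probe sets the medians were -0.091, -0.039, -0.0098, -0.036, -0.14 and -0.13 at 1 h, -0.045, -0.0021, 0.021, -0.0047, -0.050 and -0.087 at 6 h and 0.031, 0.014, -0.043, -0.034, -0.10 and -0.11 at 24 h. Of the 57 genes, 36 lay among the brightest 25% of genes, and of those bright genes 30.8%, 12.8%, 0.154%, 0%, 35.7% and 18.1% were lower at 1 h, 34.1%, 27.9%, 9.32%, 14.2%, 35.3% and 33.3% at 6 h and 21.8%, 23.9%, 37.1%, 40.7%, 44.1% and 43.9% at 24 h. The oxaliplatin/topotecan share at 1 h (29.8% of members) thus lay near that of all probe sets and above that of the bright genes, and the topotecan/D5W share at 24 h near the former and below the latter. Few changes reached 2-fold: with that fold also required, 0, 0, 0, 0, 1 and 1, 0, 0, 0, 0, 0 and 0 and 1, 1, 1, 1, 2 and 4 members were called at 1, 6 and 24 h, beside 4.05%, 5.28%, 0.295%, 0.0958%, 6.42% and 7.78% of all probe sets at 1 h, 6.1%, 5.71%, 1.4%, 1.17%, 7.76% and 8.46% at 6 h and 7.36%, 9.83%, 9.34%, 10%, 17.8% and 16.6% at 24 h.

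**Figure D2:**
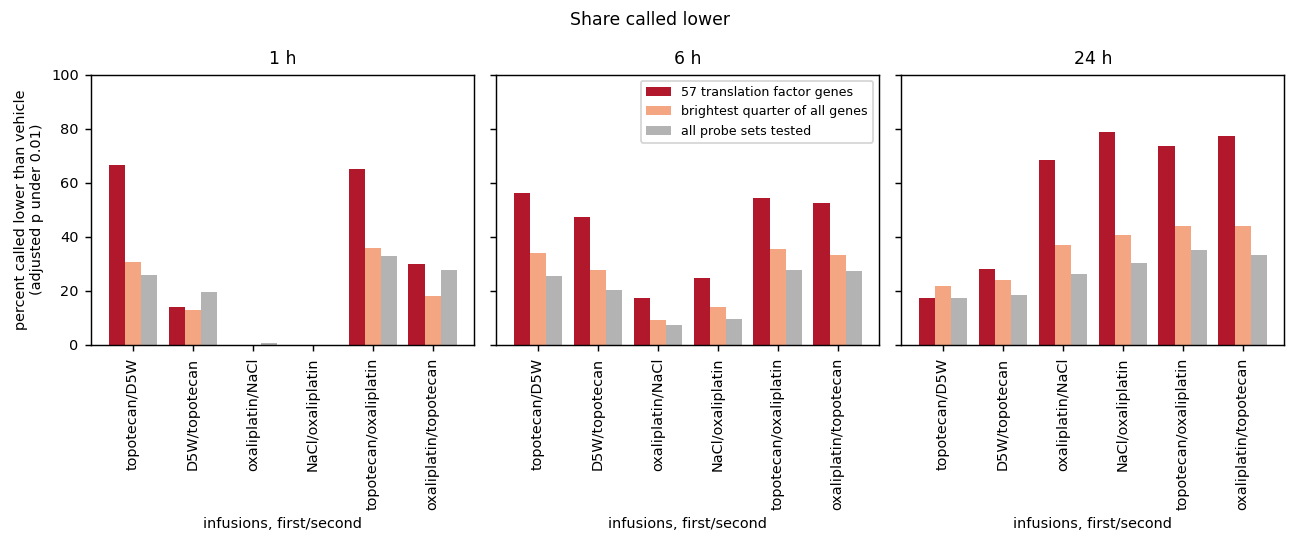
Percent of the 57 genes, of the brightest 25% of genes and of all 12532 probe sets called lower than vehicle (limma adjusted p under 0.01) in each treatment at 1, 6 and 24 h. The member bars reach 66.7% in topotecan/D5W and 64.9% in topotecan/oxaliplatin at 1 h and lie between 68.4% and 78.9% in the 4 oxaliplatin treatments at 24 h.

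Within single rats, the median over the 57 genes of the difference from the mean of the own-order vehicle rats ran from -0.062 to 0.054 in NaCl/D5W and from -0.052 to 0.059 in D5W/NaCl at 1 h. It ran from -0.41 to -0.27 in topotecan/D5W and from -0.44 to -0.35 in topotecan/oxaliplatin, clear of both vehicle groups. In D5W/topotecan it ran from -0.17 to 0.0043, which overlapped the vehicles, and in oxaliplatin/topotecan from -0.19 to -0.12, which did not. In oxaliplatin/topotecan at 1 h, however, the median difference of all probe sets (-0.13) was like that of the members (-0.12). No value over all probe sets was taken per rat. Vehicle rats were set against a mean that included themselves, which narrows their range. At 24 h the median over the 57 genes ran from -0.024 to 0.050 in NaCl/D5W and from -0.038 to 0.048 in D5W/NaCl. Oxaliplatin/NaCl rats ranged from -0.43 to -0.39, NaCl/oxaliplatin rats from -0.46 to -0.31, topotecan/oxaliplatin rats from -0.51 to -0.43 and oxaliplatin/topotecan rats from -0.60 to -0.41, and none of these overlapped the vehicle rats. D5W/topotecan rats, from -0.25 to -0.065, did not overlap them either, and topotecan/D5W rats, from -0.22 to -0.0067, did. Between rats of one group the standard deviation of a member was 0.11 at the median, against 0.18 for all probe sets.

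**Figure D3:**
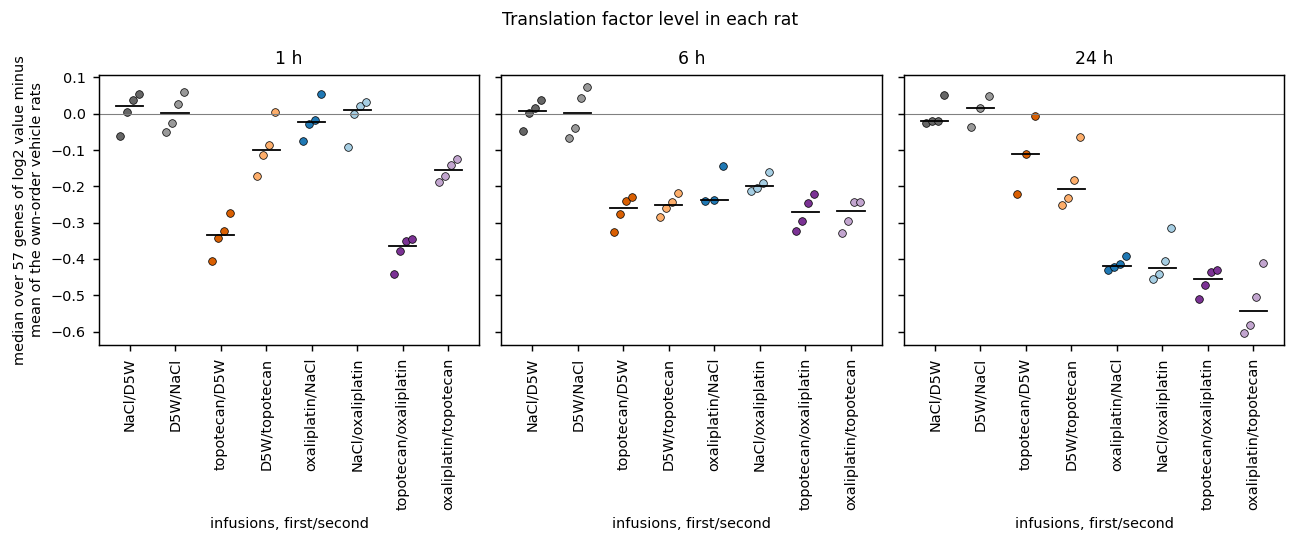
Each point is 1 rat: the median over the 57 genes of its log2 value minus the mean of the vehicle rats of its own order and time (line, group median). The topotecan-first rats lie lowest at 1 h (-0.41 to -0.27 and -0.44 to -0.35), and the oxaliplatin-treated rats at 24 h lie between -0.60 and -0.31.

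Markers of cell types changed as well, not always in step with the members. Their counts, and the counts by role below, are to be read beside the shares of all probe sets given above for each time. The 11 markers of dividing cells (among them Mki67 and Pcna) had median differences of -0.43, -0.54, -0.18, -0.0067, -0.48 and -0.53 at 1 h, where 5, 6, 1, 0, 6 and 6 fell, of -1.37, -1.33, -0.42, -0.32, -1.32 and -1.25 at 6 h, where 11, 11, 3, 4, 11 and 11 fell, and of -0.87, -1.23, -1.07, -1.18, -2.09 and -2.24 at 24 h, where all 11 fell in each treatment. The 11 erythroid markers (Hbb, Klf1 and Alas2 among them, which the labelled tissue should hold) had medians of -0.0031, -0.20, -0.040, 0.10, -0.012 and -0.088 at 1 h and of -2.03, -2.55, -1.49, -1.61, -2.56 and -2.32 at 24 h, where 9, 9, 9, 9, 9 and 9 fell and 0, 0, 1, 1, 0 and 1 rose. The marker that rose was Alas2, the first enzyme of erythroid heme synthesis, in oxaliplatin/NaCl, NaCl/oxaliplatin and oxaliplatin/topotecan (0.33, 0.29 and 0.43). The mean over the erythroid list ran from 12.90 to 13.03 in NaCl/D5W and from 12.68 to 13.07 in D5W/NaCl at 24 h, and from 10.28 to 10.99 in D5W/topotecan. T and NK cell markers had 24 h medians of 0.96, 1.05, 0.89, 1.20, 1.78 and 1.54, and 7, 7, 8, 9, 8 and 7 of 9 rose, while Nkg7 was the 1 that fell, in 2 treatments. Of 10 monocyte and macrophage markers 7, 8, 6, 8, 8 and 7 rose at 24 h, of 12 stroma and bone markers 9, 5, 7, 10, 9 and 6, of 7 endothelial markers 4, 6, 5, 5, 6 and 5 and of 6 megakaryocyte and platelet markers 0, 0, 1, 1, 6 and 3. In the monocyte list Ccr2, a chemokine receptor of circulating monocytes, differed by -0.54, -1.41, -3.38, -2.95, -3.25 and -3.73, called lower in all but topotecan/D5W. Of 4 B cell markers 0, 0, 2, 3, 3 and 0 fell and 0 rose at 24 h, with medians of 0.19, 0.065, -0.63, -0.73, -0.74 and -0.23. Of 8 markers of granulocytes and their precursors 1, 0, 3, 5, 2 and 1 rose and 1, 2, 1, 1, 4 and 1 fell. Among them Fcnb, a ficolin of immature myeloid cells, differed by -0.15, -0.91, -2.22, -2.53, -4.06 and -4.56, called lower in all but topotecan/D5W. The part of these shifts in the translation factor values was not tested. Skeletal muscle genes were raised on 3 arrays, 2 of oxaliplatin/NaCl at 24 h and 1 of topotecan/oxaliplatin at 6 h, and without these arrays every count of called members stayed within 1.5 times. Of 129 called values followed singly, 10 then no longer passed the threshold.

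Of the 4 kinases of eIF2 alpha, Eif2ak1 was called at 24 h, Eif2ak2 at 1 and 24 h, Eif2ak3 at 1 h and Eif2ak4 at 1 and 6 h. Eif2ak1, the heme-regulated kinase, fell in all 6 treatments at 24 h and in none at 1 or 6 h. Eif2ak1 read 9.87, 9.96, 10.28 and 10.78 in the 4 D5W/topotecan rats at 24 h and 11.93, 12.04 and 12.06 in the 3 D5W/NaCl rats. No treated rat reached the vehicle range in any of the 6 comparisons, and the differences at 24 h were -1.73, -1.78, -1.26, -1.29, -1.74 and -1.51 (limma adjusted p from 2.28e-11 to 2.39e-07). Its other probe set gave -1.58, -1.50, -1.07, -1.01, -1.23 and -1.24, all called, and was also lower in topotecan/D5W at 6 h (-0.41). The 24 h difference exceeded that at 1 h by -1.63, -1.58, -1.13, -1.26, -1.57 and -1.33, and each of these was called. Topotecan/D5W and NaCl/oxaliplatin differed in Eif2ak1 by -0.44 ± 0.19 (SE) at 24 h (limma adjusted p = 0.0733), and D5W/topotecan and oxaliplatin/NaCl by -0.52 ± 0.16 (SE) (limma adjusted p = 0.0243).

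Eif2ak2 encodes PKR, the interferon-induced kinase activated by double-stranded RNA, and it was the member that rose most. Eif2ak2 read 7.56, 8.51, 9.05 and 9.26 in the 4 topotecan/oxaliplatin rats at 24 h and 6.83, 6.85, 7.01 and 7.15 in the 4 NaCl/D5W rats. All 4 treated rats lay above the vehicle rats, with a difference of 1.63 ± 0.22 (SE) and a limma adjusted p of 4.42e-08. At 24 h the differences of Eif2ak2 were 0.85, 0.64, 0.83, 0.48, 1.63 and 1.12, and topotecan/D5W, topotecan/oxaliplatin and oxaliplatin/topotecan were called (limma adjusted p = 0.00395, 4.42e-08 and 0.00127). Topotecan/oxaliplatin exceeded NaCl/oxaliplatin by 1.15 ± 0.22 (SE) and topotecan/D5W by 0.78 ± 0.24 (SE), both past the threshold (limma adjusted p = 0.000172 and 0.00899). Eif2ak2 also read 7.81, 7.84, 7.86 and 8.47 in the 4 topotecan/D5W rats at 1 h and 6.94, 7.21, 7.23 and 7.44 in the 4 NaCl/D5W rats. The topotecan/D5W difference of 0.79 ± 0.22 (SE) was called (limma adjusted p = 0.00364), while that of D5W/topotecan, 0.81 ± 0.28 (SE), was not (0.0174). The call of topotecan/D5W at 1 h was lost when any 1 of animals 7 or 31 was left out (differences of 0.70 and 0.63). At 24 h the call of topotecan/D5W was lost when any 1 of animals 6, 12, 29 or 36 was left out (differences of 0.81, 0.82, 0.89 and 0.55), and that of oxaliplatin/topotecan when animal 66 was left out (0.76). The call of topotecan/oxaliplatin at 24 h held without each rat in turn.

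Eif2ak3 encodes PERK, the kinase of the endoplasmic reticulum stress response, and Eif2ak4 encodes GCN2, the sensor of uncharged tRNA. Eif2ak3 read 7.39, 7.67, 8.03 and 8.18 in the 4 oxaliplatin/topotecan rats at 1 h and 8.81, 8.83, 8.97 and 8.99 in the 4 D5W/NaCl rats. The groups did not overlap, and the difference was -1.09 ± 0.12 (SE) (limma adjusted p = 5.44e-10). Across treatments Eif2ak3 differed at 1 h by -0.024, -0.49, -0.21, -0.19, -0.41 and -1.09, with D5W/topotecan and both combinations called. That of topotecan/oxaliplatin was lost when any 1 of animals 1, 49 or 50 was left out (differences of -0.39, -0.32 and -0.38). By order of the combination, the Eif2ak3 response to topotecan first minus that to oxaliplatin first was 0.68 ± 0.16 (SE) (limma adjusted p = 0.00164). Eif2ak4 read 7.23, 7.58, 7.61 and 7.71 in the 4 oxaliplatin/topotecan rats at 1 h and 8.06, 8.06, 8.06 and 8.07 in the 4 D5W/NaCl rats. It fell in all 4 topotecan treatments at 1 h, with values of -0.45, -0.50, -0.24, -0.22, -0.52 and -0.53 over the 6, and the 2 groups of oxaliplatin alone did not pass. At 24 h Eif2ak3 differed by -0.038, 0.19, 0.075, -0.068, -0.20 and 0.11 and Eif2ak4 by 0.16, 0.33, 0.085, 0.065, -0.095 and 0.070, with 0 calls for either gene.

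**Figure D4:**
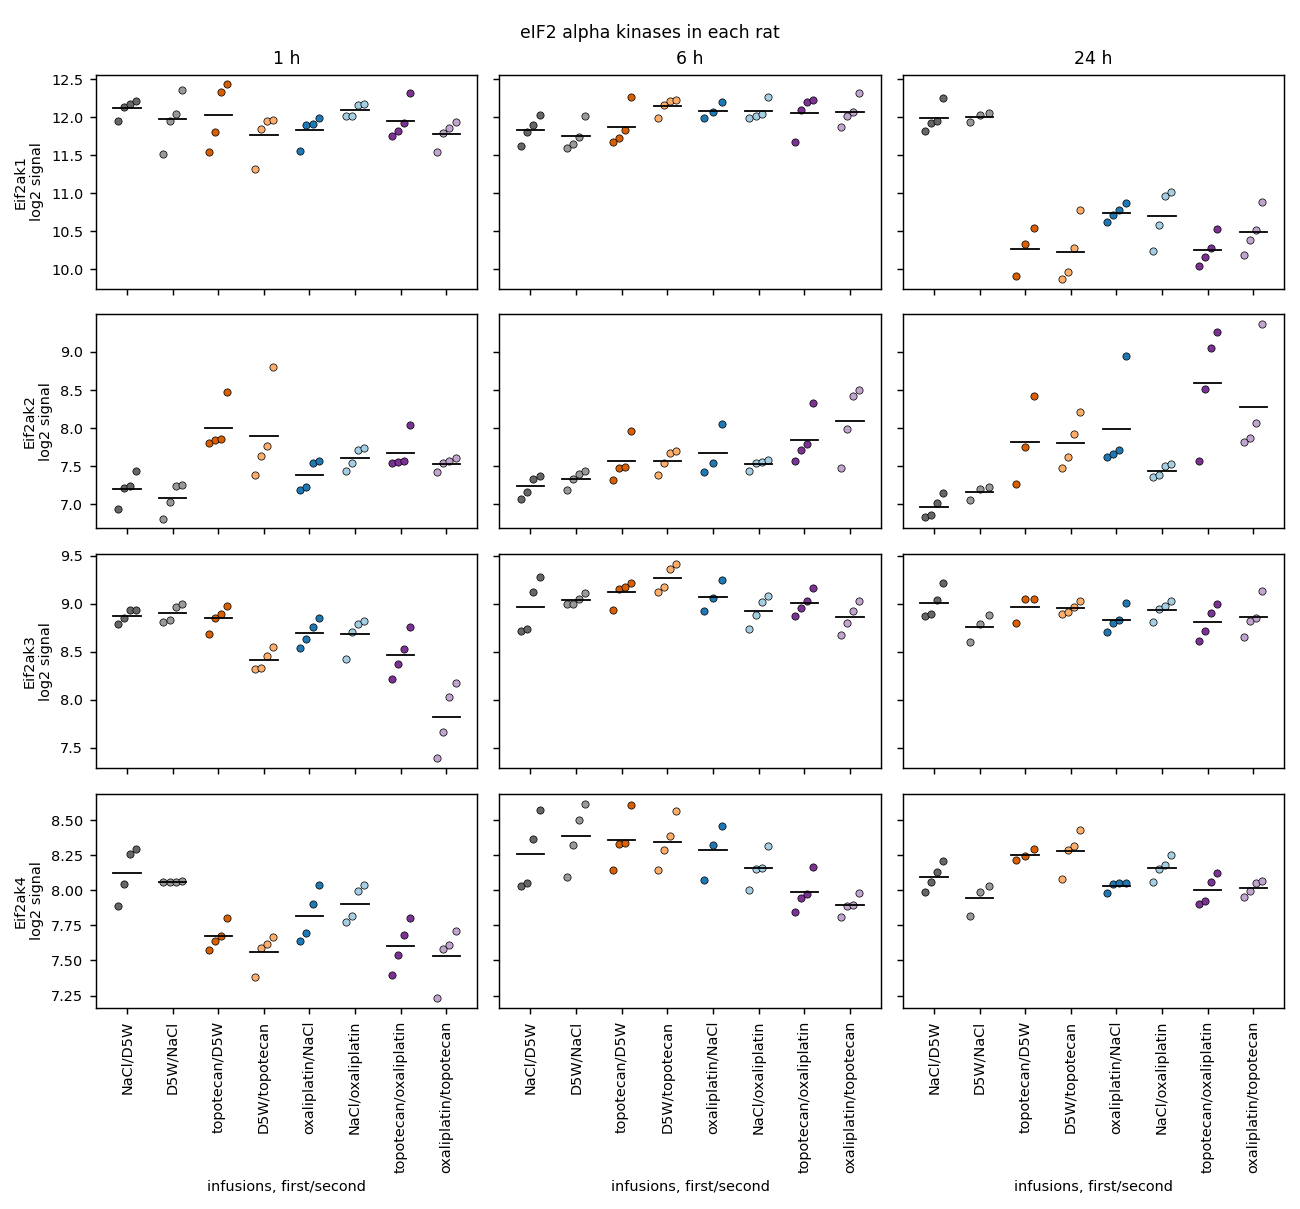
Log2 signal of the 4 eIF2 alpha kinase genes in each rat (points) and the group mean (lines) at 1, 6 and 24 h. At 24 h Eif2ak1 lies at or below 11.01 in treated rats and at or above 11.83 in vehicle rats, Eif2ak2 of treated rats lies above that of the vehicles at 24 h, and Eif2ak3 is lowest in oxaliplatin/topotecan at 1 h.

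Most genes of the kinases' substrate, eIF2, and of its exchange factor, eIF2B, were lower with oxaliplatin at 24 h. For the 6 measured genes of eIF2 and of alternative initiator tRNA delivery (Eif2s1, Eif2s2, Eif2s3, Eif2s3y, Eif2a and Eif2d), 4, 0, 0, 0, 4 and 2 were lower at 1 h, 4, 2, 1, 1, 3 and 3 at 6 h and 1, 2, 6, 6, 4 and 6 at 24 h, and 0 higher. Their medians at 24 h were -0.18, -0.31, -0.64, -0.58, -0.63 and -0.79. Eif2s1, the alpha subunit that carries the phosphorylated serine, was -0.90 ± 0.11 (SE) in oxaliplatin/topotecan at 24 h and -0.72 ± 0.076 (SE) in topotecan/oxaliplatin at 1 h. Eif2a, which despite its symbol is not an eIF2 subunit but an alternative initiation factor, had its lowest value in NaCl/oxaliplatin at 24 h, -0.88 ± 0.10 (SE). Of the 5 eIF2B subunits 4, 0, 0, 0, 3 and 2 were lower at 1 h, 3, 3, 0, 1, 3 and 3 at 6 h and 1, 2, 4, 5, 5 and 4 at 24 h. Eif2b3, the gamma subunit, was the lowest of the 5 in both topotecan-first treatments at 1 h (-0.79 ± 0.10 (SE) and -0.87 ± 0.10 (SE)), while Eif2b1, the alpha subunit, differed by -0.30 and -0.28 there and was not called.

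The 11 measured eIF3 subunits were called in 1 direction only. At 1 h 9, 1, 0, 0, 10 and 2 of them were lower, at 6 h 8, 7, 4, 7, 8 and 7 and at 24 h 2, 6, 10, 11, 11 and 11, and 0 were higher at any time. Their medians were -0.47, -0.067, -0.023, -0.039, -0.50 and -0.16 at 1 h, -0.42, -0.43, -0.29, -0.31, -0.44 and -0.46 at 6 h and -0.17, -0.31, -0.54, -0.54, -0.64 and -0.76 at 24 h. Eif3a, the largest subunit and a scaffold of the complex, was lower in all 4 topotecan treatments at 1 h (-0.51, -0.50, -0.023, -0.026, -0.64 and -0.58 over the 6) and in all 6 treatments at 24 h (-0.42, -0.52, -0.86, -0.83, -0.94 and -0.94). Eif3m had the lowest value of the 11 at 24 h, -0.96 ± 0.10 (SE) in oxaliplatin/topotecan (limma adjusted p = 7.32e-11). Eif3j, a loosely bound subunit, differed at 6 h by -0.15, -0.042, -0.14, -0.050, -0.065 and 0.072, with 0 calls, and fell in all 6 treatments at 24 h (-0.36, -0.51, -0.80, -0.75, -0.75 and -0.87). In topotecan/D5W Eif3f was not called at 1 h (-0.21 ± 0.084 (SE)), was lower at 6 h (-0.59 ± 0.084 (SE)) and was not called at 24 h (-0.15 ± 0.091 (SE)). Its difference between 6 h and the other times was not tested.

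Among the 11 genes of eIF4F and its partners, 9, 2, 0, 0, 8 and 5 were lower at 1 h, 5, 5, 0, 1, 6 and 6 at 6 h and 1, 1, 6, 7, 7 and 7 at 24 h, and 1 was higher, Eif4a2 in oxaliplatin/topotecan at 6 h. Beside 19.5% of all probe sets lower in D5W/topotecan at 1 h, 2 of 11 is no excess. The same holds for both groups of oxaliplatin alone at 6 h (7.25% and 9.69%) and of topotecan alone at 24 h (17.3% and 18.3%). Eif4a1, the main helicase of eIF4F, read 12.85, 12.98, 13.06 and 13.09 in the 4 oxaliplatin/topotecan rats at 24 h and 13.54, 13.57 and 13.63 in the 3 D5W/NaCl rats. Those groups did not overlap, and at 24 h Eif4a1 differed by -0.11, -0.17, -0.49, -0.40, -0.51 and -0.58, with the 4 oxaliplatin treatments called (limma adjusted p from 2.61e-07 to 1.97e-05). Eif4a2, its near copy, read 12.75, 12.82, 12.84 and 12.90 in the 4 oxaliplatin/topotecan rats at 6 h and 12.44, 12.47, 12.60 and 12.67 in the 4 D5W/NaCl rats. These groups did not overlap either, and the difference was 0.28 ± 0.077 (SE) (limma adjusted p = 0.00198), a call lost when animal 15 was left out (0.25). At 24 h Eif4a2 differed by 0.014, 0.0038, -0.14, -0.20, -0.087 and -0.016 and was not called, but its dimmer probe set gave -0.24, -0.064, -0.45, -0.51, -0.71 and -0.30, with topotecan/oxaliplatin called lower. The difference between the 2 paralogs was itself not tested. Eif4a3, a helicase of the exon junction complex, was lower in 4 treatments at 24 h (0.039, -0.15, -0.48, -0.44, -0.40 and -0.57).

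Eif4g3, which encodes the scaffold eIF4GII, had the lowest value of all members at 1 h. Eif4g3 read 8.94, 9.03, 9.05 and 9.13 in the 4 topotecan/oxaliplatin rats at 1 h and 10.02, 10.05, 10.20 and 10.26 in the 4 NaCl/D5W rats. The 2 groups lay apart by more than their own ranges, with a difference of -1.10 ± 0.087 (SE) (limma adjusted p = 1.83e-13). All 4 topotecan treatments were called at 1 h (-0.92, -0.62, -0.27, -0.22, -1.10 and -0.84 over the 6). Eif4g3 then read 9.27, 9.34, 9.43 and 9.54 in the 4 oxaliplatin/topotecan rats at 6 h and 9.89, 10.15, 10.19 and 10.20 in the 4 D5W/NaCl rats. The groups did not overlap in that comparison, and they did in topotecan/oxaliplatin. Eif4g3 was lower in both combinations at 6 h (-0.27 ± 0.087 (SE) and -0.71 ± 0.11 (SE)) and not called in either single topotecan group (0.055 ± 0.087 (SE) and 0.0018 ± 0.11 (SE)), and at 24 h the values were -0.0021, -0.067, 0.070, 0.17, -0.19 and -0.16, with 0 calls. The 6 h call of topotecan/oxaliplatin was lost when any 1 of animals 3, 9, 10, 51, 52 or 58 was left out (differences of -0.28, -0.26, -0.20, -0.26, -0.23 and -0.27). The 24 h difference lay above that at 1 h by 0.92 in topotecan/D5W and 0.90 in topotecan/oxaliplatin, both called. Eif4g1, the major scaffold, read 9.27, 9.49, 9.72 and 9.83 in the 4 topotecan/oxaliplatin rats at 24 h and 10.13, 10.16, 10.27 and 10.34 in the 4 NaCl/D5W rats. The groups did not overlap. The 24 h values of Eif4g1 were -0.19, -0.30, -0.41, -0.43, -0.65 and -0.64, and the 4 oxaliplatin treatments were called, oxaliplatin/NaCl with overlapping rats. Its call in oxaliplatin/NaCl was lost when any 1 of animals 17, 18, 42 or 47 was left out (differences of -0.32, -0.31, -0.35 and -0.39), and in NaCl/oxaliplatin when animal 77 was left out (-0.34). Eif4g2, which encodes DAP5, a scaffold without the eIF4E binding site, read 12.09, 12.10, 12.12 and 12.18 in the 4 D5W/topotecan rats at 6 h and 12.22, 12.34, 12.40 and 12.42 in the 4 D5W/NaCl rats in the comparison of its lowest value (-0.22 ± 0.071 (SE)). It was 1 of 2 members with 0 calls in 18 comparisons, and ranged from -0.22 to 0.13.

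**Figure D5:**
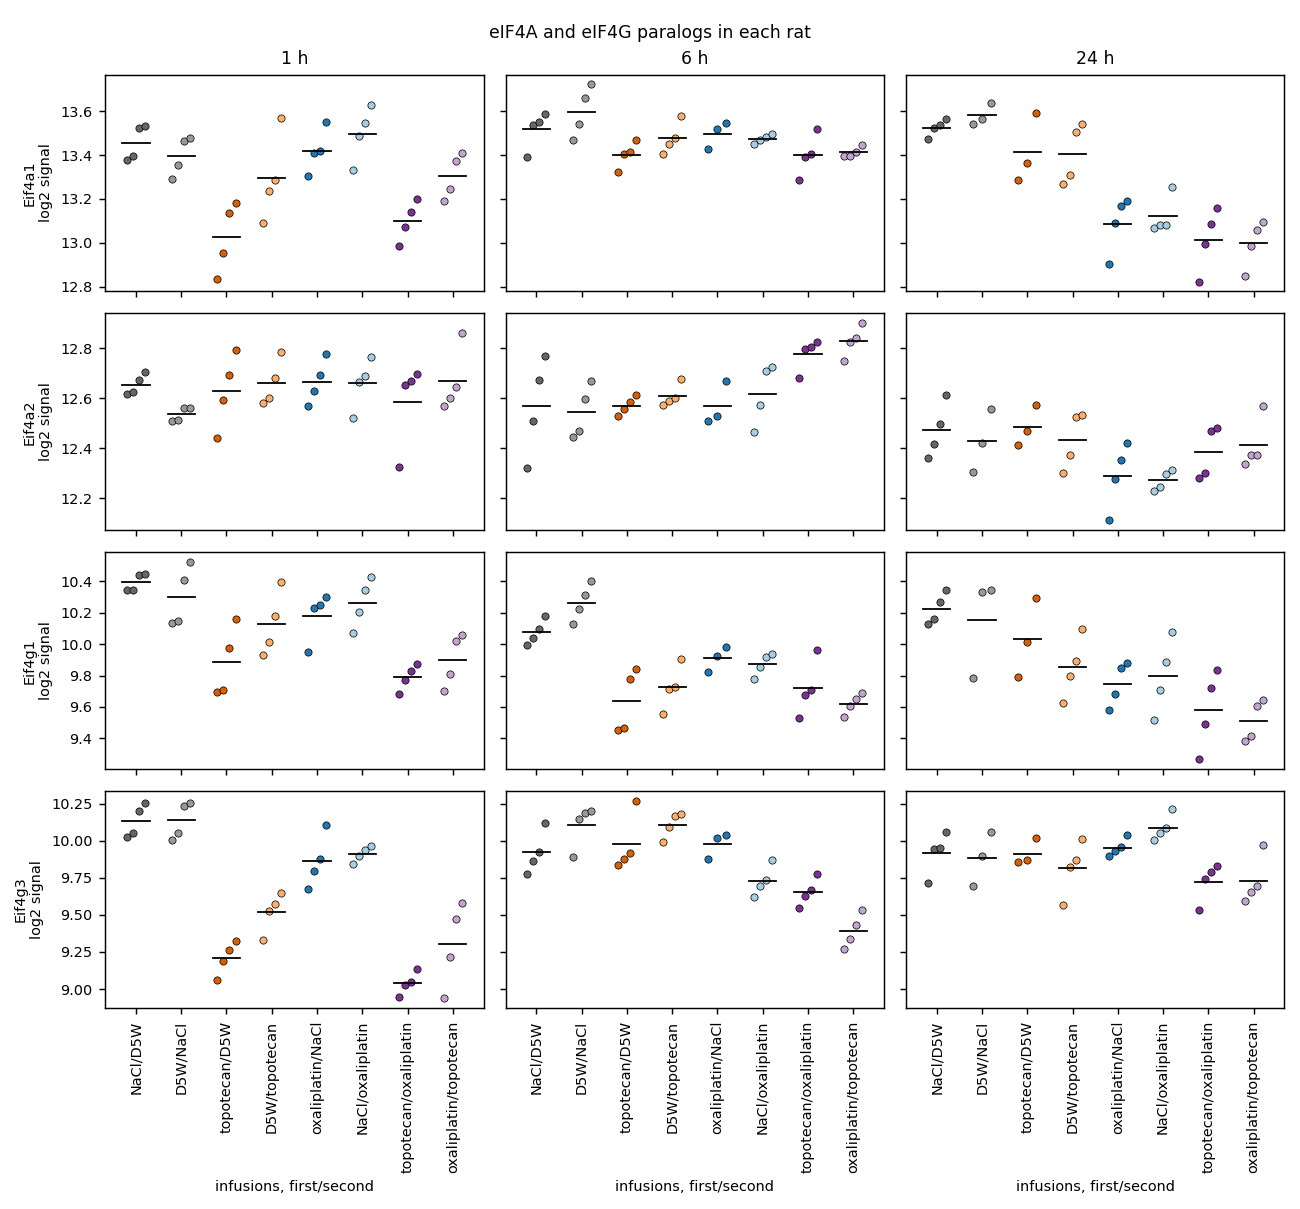
Log2 signal of Eif4a1, Eif4a2, Eif4g1 and Eif4g3 in each rat (points) and the group mean (lines) at 1, 6 and 24 h. Eif4g3 lies lowest in the topotecan treatments at 1 h, and Eif4a1 lies below the vehicles in the 4 oxaliplatin treatments at 24 h.

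Each of the 3 cap-binding genes was called lower in some comparisons. Eif4e, the canonical cap-binding protein, read 10.71, 10.75, 10.79 and 10.94 in the 4 oxaliplatin/topotecan rats at 24 h and 11.52, 11.55 and 11.86 in the 3 D5W/NaCl rats. All 4 treated rats lay below, with a difference of -0.84 ± 0.10 (SE) (limma adjusted p = 1.05e-09). Eif4e was called in all 4 topotecan treatments at 1 h (-0.48, -0.36, -0.036, -0.028, -0.52 and -0.54), in none at 6 h and in the 4 oxaliplatin treatments at 24 h (-0.10, -0.26, -0.60, -0.51, -0.59 and -0.84). Eif4e2, a homolog linked with repression of translation, read 10.83, 10.86, 10.97 and 11.10 in the 4 oxaliplatin/NaCl rats at 24 h and 11.55, 11.60 and 11.65 in the 3 D5W/NaCl rats. It fell in all 6 treatments at 24 h (-0.35, -0.38, -0.66, -0.66, -0.61 and -0.65, limma adjusted p from 6.8e-11 to 0.00117). Eif4e3, the third homolog, read 7.99, 8.06, 8.27 and 8.31 in the 4 oxaliplatin/topotecan rats at 1 h and 8.87, 9.00, 9.22 and 9.25 in the 4 D5W/NaCl rats. The groups did not overlap. The difference of -0.93 ± 0.14 (SE) in that comparison (limma adjusted p = 8.21e-07) was followed by values of 0.049, -0.24, -0.32, -0.28, -0.10 and -0.20 at 24 h, with 0 calls.

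Of the 4 genes whose products bind eIF4E from outside the complex, 2, 2, 0, 0, 2 and 2 were lower at 1 h, 3, 3, 2, 1, 3 and 3 at 6 h and 1, 1, 1, 3, 2 and 2 at 24 h. Eif4ebp1, the best-known 4E-BP, read 10.16, 10.20, 10.22 and 10.31 in the 4 topotecan/oxaliplatin rats at 6 h and 10.28, 10.37, 10.54 and 10.74 in the 4 NaCl/D5W rats in the comparison of its lowest value (-0.26 ± 0.086 (SE), limma adjusted p = 0.0105) and was not called in any comparison. Eif4ebp2 read 9.61, 9.76, 9.89 and 9.90 in the 4 topotecan/D5W rats at 6 h and 10.69, 10.71, 10.76 and 10.81 in the 4 NaCl/D5W rats. All treated rats lay below the vehicle rats, with a difference of -0.95 ± 0.18 (SE) (limma adjusted p = 3.23e-05), and over the 6 treatments at 6 h Eif4ebp2 differed by -0.95, -0.82, -0.53, -0.34, -0.78 and -0.88, with NaCl/oxaliplatin not called. The call in oxaliplatin/NaCl was lost when any 1 of animals 15, 16, 22, 39, 45 or 46 was left out (differences of -0.47, -0.53, -0.55, -0.60, -0.54 and -0.46). Eif4ebp3 read 8.46, 8.53, 8.82 and 8.87 in the 4 D5W/topotecan rats at 1 h and 9.52, 9.53, 9.54 and 9.62 in the 4 D5W/NaCl rats. These groups lay -0.88 ± 0.078 (SE) apart (limma adjusted p = 8.46e-12), and the order of topotecan was called for Eif4ebp3, with topotecan first minus topotecan second at 0.50 ± 0.10 (SE) (limma adjusted p = 0.000102). Eif4enif1, the transporter that carries eIF4E into the nucleus, was lower in 16 of 18 comparisons, the most of any member. The exceptions were the 2 groups of oxaliplatin alone at 1 h, at 0.068 and -0.014.

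Beside Eif2ak2, the members that rose at 1 h were Eif1b and Eif1ad, which were grouped here by symbol with the scanning and start codon factors. Eif1b, a paralog of the scanning factor eIF1, read 11.18, 11.24, 11.33 and 11.37 in the 4 oxaliplatin/topotecan rats at 1 h and 10.61, 10.67, 10.73 and 10.75 in the 4 D5W/NaCl rats. The 4 treated rats lay above the vehicles, and the difference was 0.59 ± 0.080 (SE) (limma adjusted p = 9.45e-08). Eif1b rose in 4 of the 6 treatments at 1 h (0.26, 0.58, 0.35, 0.10, 0.19 and 0.59), oxaliplatin/NaCl among them as the single call in that comparison (limma adjusted p = 0.00704). The calls of Eif1b were lost in oxaliplatin/NaCl when any 1 of animals 13, 14, 19, 20, 38, 43 or 44 was left out (differences of 0.34, 0.36, 0.37, 0.32, 0.31, 0.34 and 0.35) and in topotecan/D5W when any 1 of animals 1, 7, 8, 31 or 32 was left out (differences of 0.26, 0.26, 0.22, 0.27 and 0.20). At 24 h Eif1b was lower in 3 treatments (-0.10, -0.17, -0.35, -0.19, -0.36 and -0.57). Eif1ad, which codes for an eIF1A domain protein, read 10.55, 10.71, 10.80 and 11.00 in the 4 D5W/topotecan rats at 1 h and 10.45, 10.47, 10.48 and 10.54 in the 4 D5W/NaCl rats. There the rats did not overlap (0.28 ± 0.086 (SE), limma adjusted p = 0.00926), and in topotecan/D5W Eif1ad was called the other way (-0.18 ± 0.057 (SE), 0.00905). The higher call was lost when any 1 of animals 13, 14, 19, 20, 85, 91 or 92 was left out (differences of 0.28, 0.30, 0.27, 0.28, 0.30, 0.27 and 0.20) and the lower one when any 1 of animals 1, 2, 25, 26 or 31 was left out (differences of -0.15, -0.15, -0.18, -0.14 and -0.19). The difference between both orders of topotecan was -0.46 ± 0.10 (SE) (limma adjusted p = 0.000369). Eif5b, the GTPase of subunit joining, fell in 3 treatments at 1 h (-0.73, -0.36, -0.11, -0.054, -0.80 and -0.61) and in the 4 oxaliplatin treatments at 24 h (-0.25, -0.37, -0.81, -0.72, -0.69 and -0.91). For this role as a whole 0, 1, 4, 4, 4 and 5 of 5 genes were lower at 24 h.

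Eif5a2, the less common of the 2 genes for eIF5A, a factor that relieves stalled ribosomes, rose at 6 h. Eif5a2 read 6.44, 6.48, 6.77 and 6.87 in the 4 topotecan/oxaliplatin rats at 6 h and 5.69, 5.76, 6.13 and 6.14 in the 4 NaCl/D5W rats. No treated rat overlapped the vehicles, with a difference of 0.71 ± 0.12 (SE) (limma adjusted p = 2.6e-06). NaCl/oxaliplatin and both combinations were called at 6 h (0.35, 0.41, 0.20, 0.47, 0.71 and 0.55 over the 6). The call of NaCl/oxaliplatin was lost when any 1 of animals 3, 4, 75 or 76 was left out (differences of 0.42, 0.39, 0.44 and 0.44), and that of oxaliplatin/topotecan when any 1 of animals 15 or 16 was left out (differences of 0.46 and 0.48). Later, Eif5a2 read 6.13, 6.19, 6.28 and 6.36 in the 4 topotecan/oxaliplatin rats at 24 h and 5.56, 5.67, 5.82 and 5.83 in the 4 NaCl/D5W rats. The difference of 0.52 ± 0.12 (SE) was the one call at that time (limma adjusted p = 0.000152). Eif5a, the common gene, was lower in 4 treatments at 6 h (-0.25, -0.30, -0.19, -0.18, -0.20 and -0.26) and in 3 at 24 h (-0.092, -0.0064, -0.17, -0.26, -0.33 and -0.27). Eif6, which keeps the large subunit from joining early, was lower in topotecan/D5W at 1 h (-0.25 ± 0.070 (SE)) and higher there at 24 h (0.27 ± 0.076 (SE)), and its change between these times was called (0.52 ± 0.10 (SE), limma adjusted p = 8.86e-05).

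The 5 genes of elongation factor 1 fell chiefly at 6 and 24 h: 3, 0, 0, 0, 3 and 0 were lower at 1 h, 3, 3, 2, 2, 3 and 3 at 6 h and 3, 1, 5, 5, 5 and 5 at 24 h. Eef1a1, which codes for the abundant tRNA carrier, read 13.92, 14.00, 14.12 and 14.13 in the 4 oxaliplatin/NaCl rats at 24 h and 14.31, 14.32 and 14.38 in the 3 D5W/NaCl rats. Its groups did not overlap, but the difference was small, -0.29 ± 0.064 (SE) (limma adjusted p = 0.000221), and over the 6 treatments at 24 h Eef1a1 differed by -0.23, -0.17, -0.29, -0.23, -0.29 and -0.29, with D5W/topotecan not called. The Eef1a1 call in topotecan/D5W was lost when any 1 of animals 5, 11, 12, 29 or 36 was left out (differences of -0.23, -0.22, -0.22, -0.25 and -0.10). Eef1e1 codes for a small protein of the multi-tRNA synthetase complex rather than for a subunit of the exchange factor. Eef1e1 read 10.81, 10.93, 11.18 and 11.25 in the 4 oxaliplatin/topotecan rats at 24 h and 12.01, 12.38 and 12.57 in the 3 D5W/NaCl rats. All 4 treated rats lay below, with a difference of -1.28 ± 0.11 (SE) (limma adjusted p = 2.23e-12), and Eef1e1 fell in all 6 treatments at 24 h (-0.81, -0.86, -0.80, -0.71, -0.96 and -1.28) and in none before. In Eef1e1 oxaliplatin/topotecan differed from oxaliplatin/NaCl by -0.48 ± 0.10 (SE) and from D5W/topotecan by -0.42 ± 0.10 (SE), both called (limma adjusted p = 0.00136 and 0.00206). Of the exchange factor genes, Eef1d had the lowest value at 6 h, -0.68 ± 0.055 (SE) in topotecan/D5W, and Eef1g was called in all 6 treatments then (-0.38, -0.38, -0.28, -0.27, -0.40 and -0.39).

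Eef2, the translocation factor, was called lower at 6 and 24 h, and Eef2k, its inhibitory kinase, lower at 1 h and higher at 24 h. Eef2 was not called at 1 h (-0.17, -0.22, -0.13, 0.037, -0.11 and -0.23), was lower in all 6 treatments at 6 h (-0.54, -0.59, -0.43, -0.39, -0.55 and -0.55) and lower in the 4 oxaliplatin treatments at 24 h (-0.19, -0.24, -0.35, -0.36, -0.55 and -0.44). Eef2k read 7.30, 7.67, 7.69 and 8.00 in the 4 topotecan/oxaliplatin rats at 1 h and 8.51, 8.63, 8.69 and 8.76 in the 4 NaCl/D5W rats. The groups did not overlap, with a difference of -0.98 ± 0.11 (SE) (limma adjusted p = 1.09e-09), and all 4 topotecan treatments were called at 1 h (-0.77, -0.61, -0.13, -0.32, -0.98 and -0.75), D5W/topotecan with overlapping rats. Later, Eef2k read 8.70, 8.73, 8.87 and 8.93 in the 4 oxaliplatin/NaCl rats at 24 h and 8.14, 8.30 and 8.56 in the 3 D5W/NaCl rats. It rose in oxaliplatin/NaCl and NaCl/oxaliplatin (0.47 ± 0.15 (SE) and 0.42 ± 0.11 (SE), limma adjusted p = 0.0071 and 0.000983). The call in oxaliplatin/NaCl was lost when any 1 of animals 17, 24, 41 or 48 was left out (differences of 0.46, 0.38, 0.45 and 0.43). The early fall rests on the brightest of 3 Eef2k probe sets, since the others gave 0.077, -0.15, -0.043, -0.21, 0.0092 and -0.047 and -0.28, -0.21, -0.14, -0.64, -0.22 and -0.22 at 1 h with 0 calls, whereas in oxaliplatin/NaCl at 24 h both also rose (0.41 and 0.81). Eef1akmt2, a lysine methyltransferase of eEF1A, read 6.29, 6.60, 6.74 and 6.90 in the 4 oxaliplatin/topotecan rats at 24 h and 7.68, 7.71 and 8.46 in the 3 D5W/NaCl rats. It lay -1.32 ± 0.16 (SE) from vehicle (limma adjusted p = 6.16e-09), the lowest value of any member but Eif2ak1 at 24 h, where 5 of 6 treatments were called (-0.32, -0.66, -0.88, -0.56, -0.64 and -1.32). Earlier, Eef1akmt2 read 6.78, 7.23, 7.30 and 7.32 in the 4 oxaliplatin/topotecan rats at 6 h and 7.72, 7.77, 7.88 and 8.05 in the 4 D5W/NaCl rats. The groups lay apart (-0.70 ± 0.15 (SE)), and the 4 topotecan treatments were called at 6 h (-0.67, -0.67, -0.28, -0.29, -0.60 and -0.70). Over the 14 members with more than 1 probe set, 117 pairs of a called value and another probe set gave 115 values of the same sign, 66 calls in the same direction and 0 in the opposite one.

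The direct comparison of topotecan alone with oxaliplatin alone gave mostly lower calls for topotecan at 1 h and only higher calls at 24 h. In each comparison 1 drug was infused first and the other second, and the sample titles carry different code columns. Drug, position and code column thus cannot be told apart. At 1 h topotecan/D5W was lower than NaCl/oxaliplatin in 39 members and higher in 0 (all probe sets, 10.1% higher and 22.7% lower). D5W/topotecan was lower than oxaliplatin/NaCl in 5 and higher in 1 (4.6% higher and 14.4% lower). Those 5 were 8.77% of members, below the share of all probe sets. At 6 h 3 and 1 members were lower and 0 higher (3.69% higher and 10.3% lower in the former comparison and 1.58% higher and 3.14% lower in the latter), Eef1d in both. At 24 h topotecan was the higher: in 28 members in the former comparison and 16 in the latter, and lower in 0 (12% higher and 5.91% lower, then 5.55% higher and 2.67% lower). Counting a member once, 39, 3 and 28 of the 57 differed in at least 1 of both comparisons at 1, 6 and 24 h. The matching share of all probe sets was not taken. Eif2a differed most at 24 h, by 0.79 ± 0.10 (SE) between topotecan/D5W and NaCl/oxaliplatin (limma adjusted p = 3.18e-07) and by 0.53 ± 0.13 (SE) in the other comparison. Eif2b3 was -0.76 ± 0.10 (SE) at 1 h in the first comparison and 0.57 ± 0.11 (SE) at 24 h.

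At 24 h more members were called between the combination and topotecan alone than between the combination and oxaliplatin alone. Topotecan/oxaliplatin was lower than topotecan/D5W in 31 members and higher in 2 (11.5% higher and 18% lower of all probe sets), and oxaliplatin/topotecan was lower than D5W/topotecan in 31 and higher in 0 (1.47% higher and 15.4% lower). Against NaCl/oxaliplatin, topotecan/oxaliplatin was lower in 2 (Eif4g3 and Eif3i) and higher in 2 (Eif2ak2 and Eif5a2; 7.44% higher and 8.43% lower), and against oxaliplatin/NaCl, oxaliplatin/topotecan was lower in 1 (Eef1e1) and higher in 0 (1.02% higher and 4.91% lower). In all 40 members were called in at least 1 of these 4 comparisons, a count for which no share of all probe sets was taken. Eif4ebp2 showed the largest difference between topotecan/oxaliplatin and topotecan/D5W, -0.66 ± 0.20 (SE) (limma adjusted p = 0.00643), apart from that of Eif2ak2.

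The order of infusion was tested at 1 h as the difference between the responses of both orders, each from its own vehicle. With topotecan alone the response was lower with topotecan first in 12 members and higher in 1 (4.84% higher and 7.33% lower of all probe sets). With oxaliplatin alone limma called 0 members (0% higher and 0% lower), and 2 had an unadjusted p under 0.05, with no share of all probe sets taken. With the combination 12 were lower with topotecan first and 2 higher (5.09% higher and 4.76% lower). In at least 1 of the 3 comparisons 18 members were called, without a matching share of all probe sets. Eif3b differed by -0.55 ± 0.12 (SE) with topotecan alone (limma adjusted p = 0.000677) and -0.50 ± 0.12 (SE) with the combination. The higher members in the combination were Eif2ak3 and Eif4enif1 (0.52 ± 0.11 (SE)). The rat that received topotecan first was also sampled a longer time after topotecan ended. At 1 and 6 h the sample codes in the titles place only topotecan/D5W and oxaliplatin/NaCl in the columns of the vehicle groups. Every other treatment, each combination included, has codes in different columns from its vehicle. Its differences from vehicle at these times thus cannot be separated from code column. Order and code column cannot be told apart for either drug alone. The 2 orders of the combination share their columns, as do the 2 vehicle groups. At 24 h D5W/topotecan and oxaliplatin/topotecan again share no column with D5W/NaCl.

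The response at 24 h was set against that at 1 h in each treatment. In at least 1 of the 6 treatments 48 of the 57 members were called. The share of all probe sets called in at least 1 was not taken, so the 48 has no background. In topotecan/D5W 19 members lay higher at 24 h relative to vehicle than at 1 h and 2, Eif2ak1 and Eef1e1, lower (21.7% higher and 11.9% lower of all probe sets). D5W/topotecan had 6 higher and 6 lower (19.2% higher and 12.1% lower). Oxaliplatin/NaCl had 0 and 29 (11.2% higher and 15.2% lower), and NaCl/oxaliplatin 2 and 35 (20.8% higher and 22.1% lower). For topotecan/oxaliplatin the counts were 5 and 8 (28.2% higher and 18.5% lower), and for oxaliplatin/topotecan 7 and 24 (24.1% higher and 19.7% lower). In vehicle rats the median member differed between 24 and 1 h by -0.040 in NaCl/D5W and 0.067 in D5W/NaCl. Arrays of 24 h carry another code number than those of 1 and 6 h, and the vehicle arrays share it.

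Other genes of the translation machinery gave the following counts, to be read beside the shares of all probe sets lower (26%, 19.5%, 0.654%, 0.0239%, 32.9% and 27.6% at 1 h, 25.6%, 20.4%, 7.25%, 9.69%, 27.6% and 27.5% at 6 h and 17.3%, 18.3%, 26.4%, 30.2%, 35.2% and 33.3% at 24 h) and higher (9.18%, 7.67%, 0.575%, 0.136%, 9.77% and 7.21% at 1 h, 15.1%, 14.1%, 3.78%, 5.54%, 17% and 14.2% at 6 h and 16.1%, 18.1%, 19.6%, 24.9%, 25.9% and 21.8% at 24 h). Of 21 cytosolic aminoacyl-tRNA synthetases and their cofactors, which charge tRNA with amino acids, 17, 2, 0, 0, 16 and 4 were lower at 1 h, 13, 9, 4, 5, 11 and 9 at 6 h and 3, 4, 16, 16, 16 and 19 at 24 h. Hars1, the histidine enzyme, was -1.72 in oxaliplatin/topotecan at 24 h and Nars1, the asparagine enzyme, -1.05, and Wars1, the tryptophan enzyme, was the 1 that rose at any time, 0.24 in topotecan/D5W at 24 h. Of 16 genes of the integrated stress response, the programme that phosphorylated eIF2 alpha switches on, 7, 7, 4, 0, 10 and 9 were higher at 1 h, 1, 3, 2, 2, 3 and 6 at 6 h and 4, 2, 3, 7, 7 and 5 at 24 h, and 2, 0, 0, 0, 2 and 0 were lower at 1 h, 3, 1, 0, 0, 1 and 1 at 6 h and 4, 2, 1, 2, 5 and 4 at 24 h. At 24 h Vldlr, a lipoprotein receptor, was 1.92 and Ddit4, an inhibitor of mTOR, 1.45 in topotecan/oxaliplatin, Asns, asparagine synthetase, -2.34 in oxaliplatin/topotecan and Ppp1r15a, the stress-induced subunit of the eIF2 alpha phosphatase, -1.79 in topotecan/D5W.

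Of 15 mTOR pathway genes 6, 6, 0, 0, 8 and 7 were lower at 1 h, 3, 2, 1, 2, 5 and 5 at 6 h and 1, 1, 4, 6, 6 and 5 at 24 h, and 1, 0, 0, 0, 1 and 1 were higher at 1 h, 2, 1, 1, 1, 3 and 2 at 6 h and 1, 1, 0, 2, 0 and 0 at 24 h. At 1 h Rictor, a subunit of an mTOR complex, was -1.49 in oxaliplatin/topotecan and Mtor, the kinase, -1.06 in topotecan/oxaliplatin, and Rraga was the 1 that rose then, in topotecan/D5W (0.28) and in both combinations. Of 14 partners of initiation 9, 3, 0, 0, 9 and 4 were lower at 1 h, 6, 5, 2, 3, 4 and 5 at 6 h and 2, 2, 5, 7, 7 and 9 at 24 h, and 0, 0, 0, 0, 1 and 0 were higher at 1 h, 1, 1, 0, 0, 1 and 1 at 6 h and 0, 0, 0, 1, 0 and 0 at 24 h. Among them Pabpc4, a poly(A)-binding protein, was at -1.90 in topotecan/oxaliplatin at 24 h. Of 7 genes of termination and ribosome rescue 3, 3, 0, 0, 4 and 3 were lower at 1 h, 1, 0, 1, 1, 1 and 2 at 6 h and 1, 2, 4, 5, 4 and 5 at 24 h. Hbs1l, a rescue GTPase, was at -0.84 in oxaliplatin/topotecan at 24 h, and Pelo, its partner, was the 1 that rose, in 5 treatments at 1 h. Of 8 enzymes that make the modified residues of eIF5A and eEF2 or the polyamines they need, 6, 0, 0, 0, 6 and 2 were lower at 1 h, 3, 3, 0, 1, 4 and 4 at 6 h and 0, 0, 2, 5, 2 and 5 at 24 h, and 1, 1, 0, 0, 1 and 1 were higher at 1 h, 0, 0, 0, 0, 1 and 0 at 6 h and 1, 0, 0, 0, 0 and 0 at 24 h, with Sms, spermine synthase, at -1.07 in topotecan/oxaliplatin at 1 h. Of 7 genes of the Myc and Max network 1, 0, 0, 0, 2 and 0 were higher at 1 h, 2, 2, 0, 2, 2 and 2 at 6 h and 0, 1, 2, 4, 2 and 2 at 24 h, and 1, 0, 0, 0, 2 and 1 were lower at 1 h, 2, 2, 0, 0, 2 and 2 at 6 h and 3, 1, 1, 1, 2 and 1 at 24 h. Mxd3, a partner of Max, was -1.31 in topotecan/oxaliplatin at 24 h.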

How the data were processed

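Total RNA of single rats was hybridised to Affymetrix rat genome arrays. The deposited table holds log2 signals that the authors made by RMA (version not given in the sources used here) and filtered for probe sets whose probes vary together, giving 12560 probe sets. Values ran from 3.94 to 15.40, array medians from 8.79 to 9.30. RMA compresses changes of dim probe sets, and a common shift of most mRNAs is partly removed. Here 28 array controls were removed and 12532 probe sets were fitted with limma 3.58.1 in R 4.3.3, in 2 fits of 4 infusion groups (1 fit of all 8 for order), with Benjamini-Hochberg adjustment within a comparison and a threshold of 0.01. Gene symbols came from the array annotation, promoters from RefSeq GRCr8. The fits were tested on simulated data. Arrays have no read depth, and the number of rats limits the precision. Every member may be named, and values per rat are given for the 3 highest and 3 lowest called members per time (where called) and for paralog groups. The members and lists were chosen with earlier results of these data known. Alternatives covered rats in a fit, variance prior, normalization, animal set, fold, probe sets averaged, vehicles pooled, dim probe sets, muscle-signal arrays and each rat left out. Probe sets of several symbols were left out as members, and 0 columns lacked a sample.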

Additional observations from a re-analysis of the deposited data

Results flagged for a closer look

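In 8 of 140 groups of 4 rats examined, 1 rat stood apart from the other 3 by Dixon's gap criterion (critical value 0.829), and chance alone gives about 1 in 20. Eif2ak2 held 4 of these, with a log2 value of 8.47 against 7.86 in the nearest rat of topotecan/D5W at 1 h, 8.03 against 7.56 in topotecan/oxaliplatin at 1 h, 8.95 against 7.71 in oxaliplatin/NaCl at 24 h and 9.37 against 8.06 in oxaliplatin/topotecan at 24 h. The others were Eif1b in NaCl/oxaliplatin at 1 h (10.61 against 11.00), Eef1akmt2 in oxaliplatin/topotecan at 6 h (6.78 against 7.23), Eef1e1 in oxaliplatin/NaCl at 24 h (11.77 against 11.46) and the median member difference of 1 NaCl/D5W rat at 24 h (0.050 against -0.019).

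Among the 3 highest and 3 lowest called members of each time, the response differed by order at 1 h (limma adjusted p under 0.01) for Eif1b (-0.40) and Eif2ak3 (0.68) in the combination and for Eif1ad (-0.46) with topotecan alone, each as topotecan first minus second. The difference at 24 h minus that at 1 h passed the same threshold for these members as follows. For Eif2ak1 it was -1.63 in topotecan/D5W, -1.58 in D5W/topotecan, -1.13 in oxaliplatin/NaCl, -1.26 in NaCl/oxaliplatin, -1.57 in topotecan/oxaliplatin and -1.33 in oxaliplatin/topotecan. Eef1e1 gave -0.64 in topotecan/D5W, -0.60 in D5W/topotecan, -0.70 in oxaliplatin/NaCl, -0.81 in NaCl/oxaliplatin, -0.90 in topotecan/oxaliplatin and -1.17 in oxaliplatin/topotecan. Eef2k gave 0.95 in topotecan/D5W, 0.90 in D5W/topotecan, 0.74 in NaCl/oxaliplatin, 1.06 in topotecan/oxaliplatin and 0.98 in oxaliplatin/topotecan. Eif4g3 gave 0.92 in topotecan/D5W, 0.55 in D5W/topotecan, 0.40 in NaCl/oxaliplatin, 0.90 in topotecan/oxaliplatin and 0.68 in oxaliplatin/topotecan. Values for Eif1b were -0.75 in D5W/topotecan, -0.70 in oxaliplatin/NaCl, -0.54 in topotecan/oxaliplatin and -1.15 in oxaliplatin/topotecan. Those for Eef1akmt2 were -0.74 in oxaliplatin/NaCl, -0.61 in NaCl/oxaliplatin and -0.95 in oxaliplatin/topotecan, and for Eif1ad -0.54 in oxaliplatin/NaCl, -0.32 in NaCl/oxaliplatin and -0.78 in oxaliplatin/topotecan. Eif2ak3 differed by 0.68 in D5W/topotecan and 1.19 in oxaliplatin/topotecan, and Eif2ak2 by 1.16 in topotecan/oxaliplatin.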

How the results depend on the processing

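A variance prior with trend and robust, averaged probe sets of a gene, the dimmest 25% of probe sets left out (4 members, Eef1akmt2, Eif2ak2, Eif2ak4 and Eif5a2, then had no value) and the 3 arrays with muscle signal left out each kept all 24 counts within 1.5 times. With a fold above 2 also required, members called against vehicle were 0, 0, 0, 0, 1 and 1 at 1 h, 0 in each at 6 h, and 1, 1, 1, 1, 2 and 4 at 24 h, and 0 differed between the drugs alone at 1, 6 and 24 h, 1 between a combination and a single agent, 0 by order and 7 between 24 and 1 h. For counts over several comparisons no share of all probe sets was taken. The count for oxaliplatin/NaCl at 6 h was the least settled, at 20 with all 8 groups in 1 fit, 17 after a second quantile normalization, 19 with the animal set as a block and 25 with pooled vehicles. Pooled vehicles also gave 2 for oxaliplatin/NaCl at 1 h, 27 for NaCl/oxaliplatin at 6 h and 19 for topotecan/D5W at 24 h. Members that differed between the drugs alone at 6 h were 5 after the second normalization and 6 with the animal set. That normalization moved the median of all probe sets in topotecan/oxaliplatin at 1 h from -0.14 to 0.011 and that of the members from -0.36 to -0.24. Lower members at 1 h were then 34, 8, 0, 0, 29 and 11 and at 24 h 11, 15, 34, 42, 39 and 35. Of all probe sets 19.6%, 16.7%, 0.702%, 0.0239%, 22.2% and 18.8% were then lower at 1 h. At 24 h 18.2%, 20.4%, 26.2%, 29.6%, 33.8% and 30.2% were. The counts for oxaliplatin/topotecan at 1 h and topotecan/D5W at 24 h were thus near that background. With 1 rat left out, the count ranged from 2 to 8 for oxaliplatin/NaCl at 6 h (2 without animal 39 and 6 without animal 22 or 46), from 4 to 16 for topotecan/D5W at 24 h (animals 36, 29 and 11 as given above) and from 0 to 1 for oxaliplatin/NaCl at 1 h (0 without any of 7 of the 8 rats), and the other 21 counts stayed within 1.5 times. Single values were followed only for the members given per rat (the largest calls per time and the paralog groups), with 129 called results. Of 2007 values of these under the alternatives 0 changed sign and 147 no longer passed the threshold. Among the 147, 110 came with 1 rat left out, 21 with the second quantile normalization and 10 with the muscle-signal arrays left out. The calls lost under the last 2 of these are not named singly above. Called values of the other members were not followed singly. No paired analysis was possible because each animal number belongs to 1 rat and 1 group. The causes of these shifts were not tested.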
